A study of Caenorhabditis elegans with 2 samples.

Results

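The nuclear hormone receptor genes of Caenorhabditis elegans were examined for entries in lists of regions bound by ZAG-1, the worm's ZEB-class transcription factor, which carries zinc fingers and a homeodomain. They were taken as the protein-coding genes of the WBcel235 annotation whose symbol is nhr- followed by a number (269 genes), together with unc-55, fax-1, odr-7, daf-12 and sex-1. This gave 274 of the 19973 protein-coding genes on the 6 nuclear chromosomes. Chromatin immunoprecipitation and sequencing had been done on whole L1 larvae of mixed sex of strain OP83, in 2 biological replicates of 1 group. The genotype is unc-119(ed3) III; wgIs83, where wgIs83 is an integrated transgene and the tagged protein is named eGFP-zag-1, with the antibody labelled zag-1. Both replicates carry all of these alleles, and no untreated or untagged sample was used here. The measurement is of whole animals, so a site bound in few cells and a site weakly bound in many cells cannot be told apart. Neither the promoter of the transgene nor the read number could be taken from the labels.

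Nuclear hormone receptors are transcription factors with a zinc finger DNA-binding domain and, in most, a domain that binds a small lipophilic ligand such as a steroid or fatty acid. Binding of the ligand switches the receptor between corepressors and coactivators. The family is greatly expanded in nematodes, where most members are related to the vertebrate receptor HNF4 and only a minority have a clear counterpart in insects or vertebrates. Among the latter are daf-12, the dafachronic acid receptor that governs the choice between reproductive growth and dauer arrest, and nhr-23 and nhr-25, which act in moulting. The receptors unc-55, fax-1 and odr-7 act in the identity of particular motor neurons, interneurons and olfactory neurons, and ZAG-1 is itself known for its part in neuron differentiation.

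The sequences around the summits at 9 of the 20 receptor genes of highest signal are shown, as examples of the words found there. They are not the 9 strongest. For example, nhr-138 and nhr-216 rank above nhr-17 and nhr-67, hold no match and are not shown. Within 100 bp of the summit, GAGAGA was at 11 of the 20 highest entries, GAGACGCA at 4 and CAGGTA at 1. Each is the 151 bp centred on the summit of the gene's highest entry, on the plus strand of WBcel235 (ce11), read from the RefSeq copy of that assembly. Capitals mark matches on either strand to GAGAGA or to CGTCTC, to GAGACGCA (which overlaps CGTCTC read on the other strand), and to CAGGTA or its variant CAGGTG.
nhr-19 chrII:9603574-9603724: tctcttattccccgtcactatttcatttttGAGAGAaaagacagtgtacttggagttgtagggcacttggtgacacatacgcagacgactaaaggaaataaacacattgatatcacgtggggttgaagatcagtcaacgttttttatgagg
nhr-1 chrX:17513678-17513828: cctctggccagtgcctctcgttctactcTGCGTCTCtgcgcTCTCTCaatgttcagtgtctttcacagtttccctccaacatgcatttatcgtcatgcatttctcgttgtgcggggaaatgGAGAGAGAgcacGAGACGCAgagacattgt
nhr-34 chrIV:9677717-9677867: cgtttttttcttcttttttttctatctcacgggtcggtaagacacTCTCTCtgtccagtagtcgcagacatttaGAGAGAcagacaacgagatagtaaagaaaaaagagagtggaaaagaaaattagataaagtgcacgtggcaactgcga
nhr-88 chrII:2974009-2974159: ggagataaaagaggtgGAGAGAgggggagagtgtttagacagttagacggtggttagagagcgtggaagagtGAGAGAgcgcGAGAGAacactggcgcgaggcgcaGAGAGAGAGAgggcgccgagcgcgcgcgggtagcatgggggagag
nhr-40 chrX:2598932-2599082: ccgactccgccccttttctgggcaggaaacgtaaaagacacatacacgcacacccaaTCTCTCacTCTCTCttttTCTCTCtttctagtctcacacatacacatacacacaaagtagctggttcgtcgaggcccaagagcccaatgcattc
daf-12 chrX:10637539-10637689: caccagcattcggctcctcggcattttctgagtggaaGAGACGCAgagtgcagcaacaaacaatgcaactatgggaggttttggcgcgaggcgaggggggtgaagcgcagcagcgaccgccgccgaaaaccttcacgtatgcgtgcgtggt
nhr-17 chrX:12670480-12670630: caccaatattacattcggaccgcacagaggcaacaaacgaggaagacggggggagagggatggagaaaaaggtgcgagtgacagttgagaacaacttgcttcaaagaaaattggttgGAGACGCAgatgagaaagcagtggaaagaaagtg
nhr-154 chrV:12102572-12102722: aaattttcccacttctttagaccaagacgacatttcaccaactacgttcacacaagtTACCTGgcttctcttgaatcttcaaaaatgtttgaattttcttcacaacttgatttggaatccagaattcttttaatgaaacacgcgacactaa
nhr-67 chrIV:11170219-11170369: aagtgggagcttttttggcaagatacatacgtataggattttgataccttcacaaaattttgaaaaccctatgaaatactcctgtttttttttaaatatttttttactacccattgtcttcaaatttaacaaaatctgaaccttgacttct
The first 4 are optimal peaks. The nhr-1 sequence held GAGACGCA on both strands as well as GAGAGA on both strands, and the nhr-88 sequence held several runs of GAGAGA. The daf-12 and nhr-17 sequences each held GAGACGCA. The nhr-154 sequence held CAGGTA, the E-box type that ZEB-class proteins are known to bind, and the nhr-67 sequence held no match.

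A summit counted for the protein-coding gene whose annotated transcript start was closest, up to 5000 bp away. The optimal list, which the authors thresholded on the irreproducible discovery rate, holds 478 peaks with a signal of 29.6 to 180. The pooled list holds 30000 entries of peaks and background together, so an entry there is not by itself a bound site. Of the 274 receptor genes, 5 were assigned an optimal peak (1.82%, 95% Wilson interval 0.782 to 4.20), against 2.18% of all protein-coding genes. The receptor genes' share was thus close to the background. When the share on each chromosome was weighted by the number of receptor genes there, the background was 1.68%, which corresponds to 4.62 genes. A pooled entry was assigned to 190 receptor genes (69.3%, 63.6 to 74.5), against 63.0% of all genes and 61.0% at the chromosome-weighted shares. One of the 1000 pooled entries of highest signal was assigned to 12 receptor genes (4.38%, 2.52 to 7.498), against 4.31% of all genes and 3.32% at the chromosome-weighted shares. One of the 3000 highest was assigned to 33 (12.04%, 8.71 to 16.4), against 11.7% of all genes and 9.72% at the chromosome-weighted shares. The intervals for the optimal list and for the 1000 and 3000 highest entries included both backgrounds. The interval for a pooled entry lay above both, and the median assignable sequence, the stretch of genome nearer to a gene's own starts than to those of any other gene within 5000 bp, was 3.99 kb for receptor genes and 3.78 kb for all genes. No test of the family against other genes was made, and the part of that sequence in the share was not tested.

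The 5 genes with an optimal peak were nhr-19, nhr-1, nhr-34, nhr-88 and nhr-49. Of these, nhr-49 is an HNF4-related receptor known for the control of fatty acid desaturation, oxidation and the fasting response. The nhr-19 peak had the highest signal of the family, 45.8 at rank 143 of the pooled list. It lay at chrII:9603477-9603820, with its summit 1601 bp downstream of the nearest start, in an intron of nhr-19. The nhr-1 peak had a signal of 37.3 at rank 250 and lay at chrX:17513581-17513924, with its summit 310 bp upstream of the first start of the gene. The nhr-34 peak had a signal of 35.1 at rank 301. It lay in intergenic sequence at chrIV:9677620-9677963, 2120 bp upstream of nhr-34, and the start of the insulin-like gene ins-8 was 2959 bp away. The nhr-88 peak had a signal of 33.7 at rank 347, at chrII:2973912-2974255 and 2555 bp upstream of the gene. The nearest start of another gene, lido-7, was 14216 bp from it. The nhr-49 peak had a signal of 30.8 at rank 428, at chrI:9869117-9869460 and 362 bp upstream of a start. Thus 2 of the 5 summits, at nhr-1 and nhr-49, lay within 500 bp of an annotated start, 1 lay in an intron and 2 in intergenic sequence. With assignment within 1000 bp only those 2 genes kept a peak, and within 2000 bp nhr-19 did too. The receptor genes' shares were then 0.730% and 1.09%, against 1.52% and 1.85% of all genes. None of the 5 peaks overlapped an annotated noncoding gene.

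**Figure D1:**
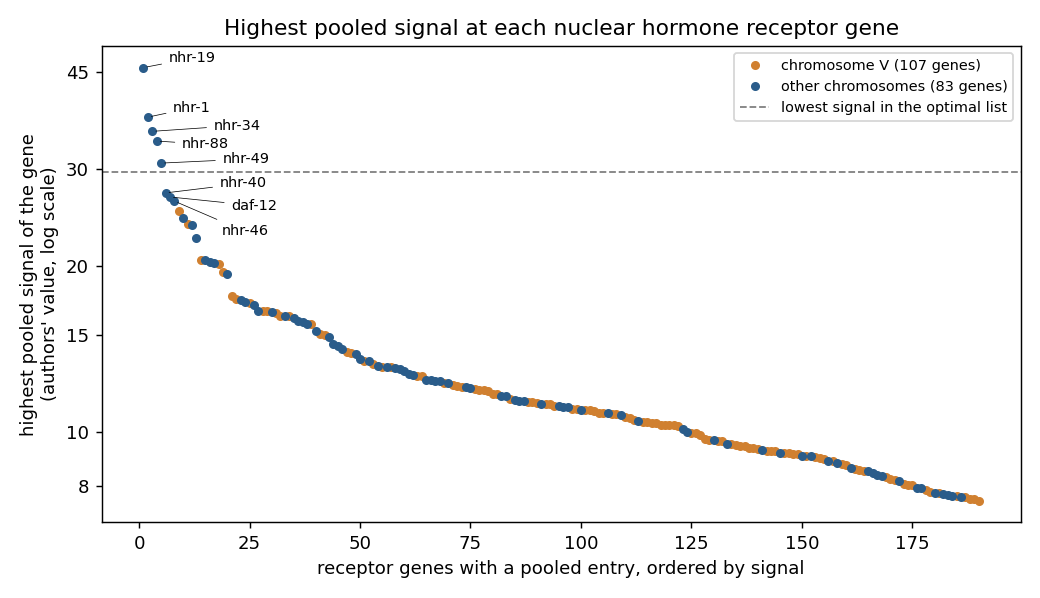
Highest pooled signal (the authors' value, log scale) of each of the 190 receptor genes with a pooled entry, in descending order, with genes on chromosome V in orange and the others in blue. The dashed line is the lowest signal in the optimal list, 29.6, and the 5 genes above it are on chromosomes other than V.

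The replicates ranked 2 of these 5 peaks alike and 3 far apart. Ranks are by signal within each replicate's list of 30000 entries, whose signal scales are not shared. At nhr-19 the overlapping entry ranked 179 in replicate 1 (signal 17.0) and 223 in replicate 2 (27.2). At nhr-1 the ranks were 248 (14.97) and 241 (26.4). These 2 genes were thus among the 478 highest entries of both replicates. The nhr-88 peak ranked 112 in replicate 1 (20.5) but 3436 in replicate 2 (11.8). The nhr-34 peak ranked 1567 in replicate 1 (9.19) and 184 in replicate 2 (28.2), and the nhr-49 peak 8907 (5.82) and 329 (23.4). Each of the last 3 was therefore among the 478 highest of 1 replicate only. Another case was nhr-258, whose highest pooled entry was not an optimal peak, with a signal of 23.7 at rank 864. That pooled entry lay in intergenic sequence at chrIV:8040891-8041234, with its summit 3875 bp upstream of nhr-258. The overlapping entries ranked 415 in replicate 1 (12.8) and 245 in replicate 2 (26.3). Their summits were 3835 bp and 4093 bp upstream of the gene. The replicate 2 entry, at chrIV:8040657-8041032, overlapped the pooled entry only in part, and its summit lay outside it. The 2 ranks may therefore not belong to the same site.

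**Figure D2:**
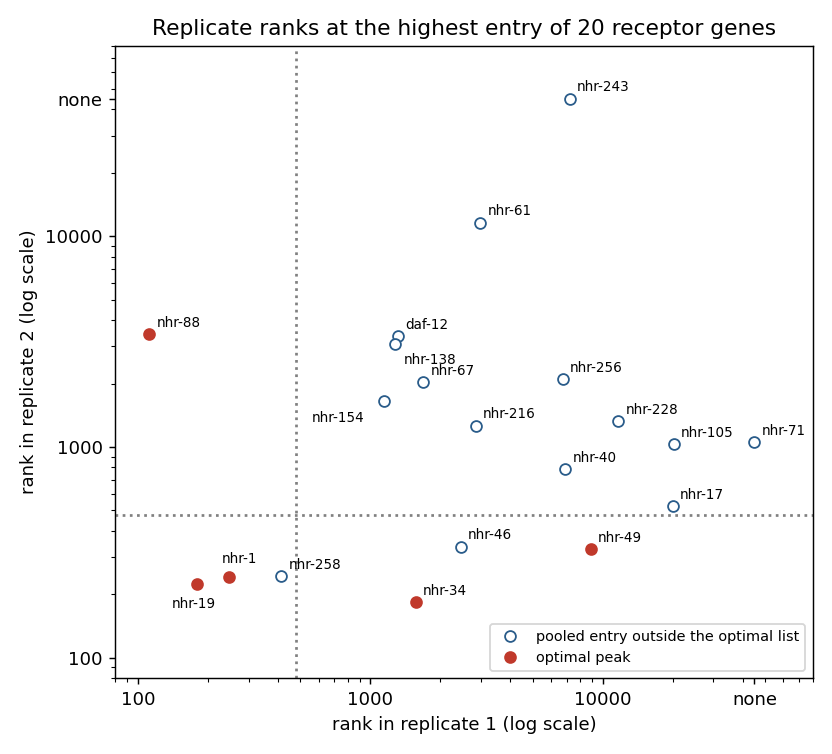
Rank of the best overlapping entry in replicate 1 (x axis) and replicate 2 (y axis), both on log scales, for the highest pooled entry of the 20 receptor genes of highest signal. Red points are optimal peaks, dotted lines are at rank 478 and points at none had no overlapping entry. Only nhr-19, nhr-1 and nhr-258 lie under rank 478 in both replicates. At nhr-258 the summit of the replicate 2 entry lies outside the pooled entry.

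Below the optimal list the highest entries were at nhr-40 (signal 27.2, rank 587), daf-12 (26.7, rank 616) and nhr-46 (26.2, rank 647). The nhr-40 entry lay 401 bp upstream of a start inside the gene, and nhr-40 is known for a part in embryonic and muscle development. It ranked 6904 in replicate 1 and 785 in replicate 2. The daf-12 entry lay at chrX:10637442-10637785 in the first intron of 1 annotated transcript, 1706 bp downstream of the nearest start, and ranked 1321 and 3357. The nhr-46 entry lay in its first intron, 3688 bp from a start, and ranked 2449 and 337. The other genes among the 20 of highest signal were, in order, nhr-154, nhr-138, nhr-216, nhr-258, nhr-17, nhr-243, nhr-67, nhr-61, nhr-105, nhr-228, nhr-256 and nhr-71, with signals from 25.2 down to 19.4. Of the 20 highest entries, 18 were overlapped by entries of both replicates. The exceptions were nhr-243, with none in replicate 2, and nhr-71, with none in replicate 1. By position, 9 were intergenic, 6 lay within 500 bp of a start, 4 in introns and 1, at nhr-154, in a coding exon. The nhr-138 entry was nearly as close to another gene, at 4826 bp from nhr-138 and 4855 bp from C28D4.18.

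Receptors with counterparts in insects or vertebrates had entries but no optimal peak. Of these 14 genes, 13 were assigned a pooled entry and 0 an optimal peak, a count that allows a share of up to 21.4%. Over all protein-coding genes the shares were 63.0% and 2.18%. The median assignable sequence was 8.48 kb for these 14 genes and 3.78 kb for all genes, and its part in the count was not tested. Their highest signals ran from 26.7 at daf-12 to 7.71 at sex-1, the X-chromosome dose sensor of sex determination, and nhr-111 was assigned none. After daf-12 came nhr-67, a tailless-type receptor (signal 20.5, rank 1333), nhr-48 (17.3, rank 2384), nhr-41 (17.0, rank 2541) and nhr-6, of the NR4A type (16.5, rank 2795).

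Receptors with known parts in neurons ranged from rank 1333 to rank 25205 of the pooled list. All 5 on the list, unc-55, fax-1, odr-7, nhr-67 and nhr-6, were assigned a pooled entry and none an optimal peak. The shares of all genes were 63.0% and 2.18%, and the median assignable sequence of the 5 was 6.17 kb. All but odr-7 are also among the receptors with counterparts in insects or vertebrates, so these counts are not separate. The nhr-67 entry lay in its first intron, 546 bp from the start, and overlapped entries ranked 1693 in replicate 1 and 2028 in replicate 2. Its 3 pooled entries lay next to each other in that intron and overlapped the same replicate 2 entry, so they are not separate observations. At odr-7, which specifies the AWA olfactory neuron, the highest entry was 159 bp upstream of the start with a signal of 11.7 at rank 9890. It ranked 15087 in replicate 1 and 4986 in replicate 2. At unc-55, which sets the identity of the VD motor neurons, 1 entry lay 3040 bp upstream with a signal of 9.28 at rank 18816 and had no counterpart in replicate 1. At fax-1, which acts in interneuron axon pathfinding, 1 entry lay 2262 bp upstream with a signal of 8.15 at rank 25205. The values at unc-55 and fax-1 were thus below the median signal of all assigned pooled entries, 10.2.

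The moulting and developmental receptors nhr-23, nhr-25, nhr-41, nhr-85, nhr-91, nhr-2 and nhr-60 had 6 of 7 members with a pooled entry and 0 with an optimal peak, against 63.0% and 2.18% of all genes. Their median assignable sequence was 8.79 kb. All but nhr-2 and nhr-60 are also among the receptors with counterparts in insects or vertebrates, so these counts are not separate. The member at 0 entries was nhr-60. The nhr-23 entry, in its first intron, ranked 6681 with a signal of 13.1, and ranked 1272 in replicate 1 and 18866 in replicate 2. The nhr-25 entry, 3703 bp upstream, ranked 6474 with a signal of 13.2. The xenobiotic and sterol receptor nhr-8, a close relative of daf-12, had 1 entry at rank 27875, in a coding exon, and was assigned none from either replicate list.

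HNF4-type receptors of metabolism and stress had 12 of 14 members with a pooled entry and 1, nhr-49, with an optimal peak, against 63.0% and 2.18% of all genes. Their median assignable sequence was 5.53 kb. The next were nhr-14, known for iron homeostasis (signal 16.6, rank 2729), and nhr-62, which acts in dietary restriction (12.4, rank 8047). The fatty acid desaturase regulator nhr-80 ranked 9962 with a signal of 11.6. The partners nhr-10 and nhr-68, which regulate the propionate shunt, ranked 10433 and 11952. No pooled entry was assigned to nhr-13 or nhr-114. The remaining 243 receptors, most without a described function, had 163 members with a pooled entry (67.1%) and 4 with an optimal peak, and a median assignable sequence of 3.83 kb. The part of these lengths in the groups' counts was not tested.

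Several receptor genes were assigned many entries, inside the gene or near it. Of the 274 genes, 20 had 5 or more, and 1052 of the 19973 protein-coding genes did, with a maximum of 30. The largest numbers of pooled entries were at daf-12 (12), nhr-1 (11), nhr-46 (11), nhr-34 (8), and nhr-17, nhr-4 and nhr-88 (7 each), followed by nhr-5, nhr-20, nhr-28, nhr-35 and nhr-40 (6 each). These genes run from 2.78 kb (nhr-20) to 31.0 kb (daf-12) and have 1 to 9 annotated starts. At nhr-4, nhr-20, nhr-17, nhr-88 and nhr-28 more entries lay upstream of the gene (6, 5, 5, 4 and 3) than inside it (1, 1, 2, 3 and 2). At daf-12, nhr-1, nhr-46, nhr-34 and nhr-40 more lay inside, and at nhr-5 and nhr-35 the numbers were equal. daf-12 spans 31.0 kb with 9 annotated starts, and 11 of its 12 entries lay inside the gene. Only 1 of them was among the 3000 highest, and 3 were overlapped by entries of both replicates. nhr-1 spans 14.1 kb with 4 starts, 8 of its 11 entries lay inside the gene, 4 were among the 3000 highest and 8 were overlapped in both replicates. Those 8 rest on 6 distinct pairs of replicate entries, since neighbouring pooled entries can overlap the same ones. At nhr-34, 7 of 8 entries were overlapped in both replicates, by 5 distinct pairs. At nhr-88, 2 of 7 were, by 2 distinct pairs. At nhr-40 all 6 entries had a signal of 15.35 or more, and 4 of them were among the 3000 highest. By contrast, nhr-4, nhr-5, nhr-28 and nhr-35 had no entry among the 3000 highest, and their highest signals were 11.2 to 12.5.

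**Figure D3:**
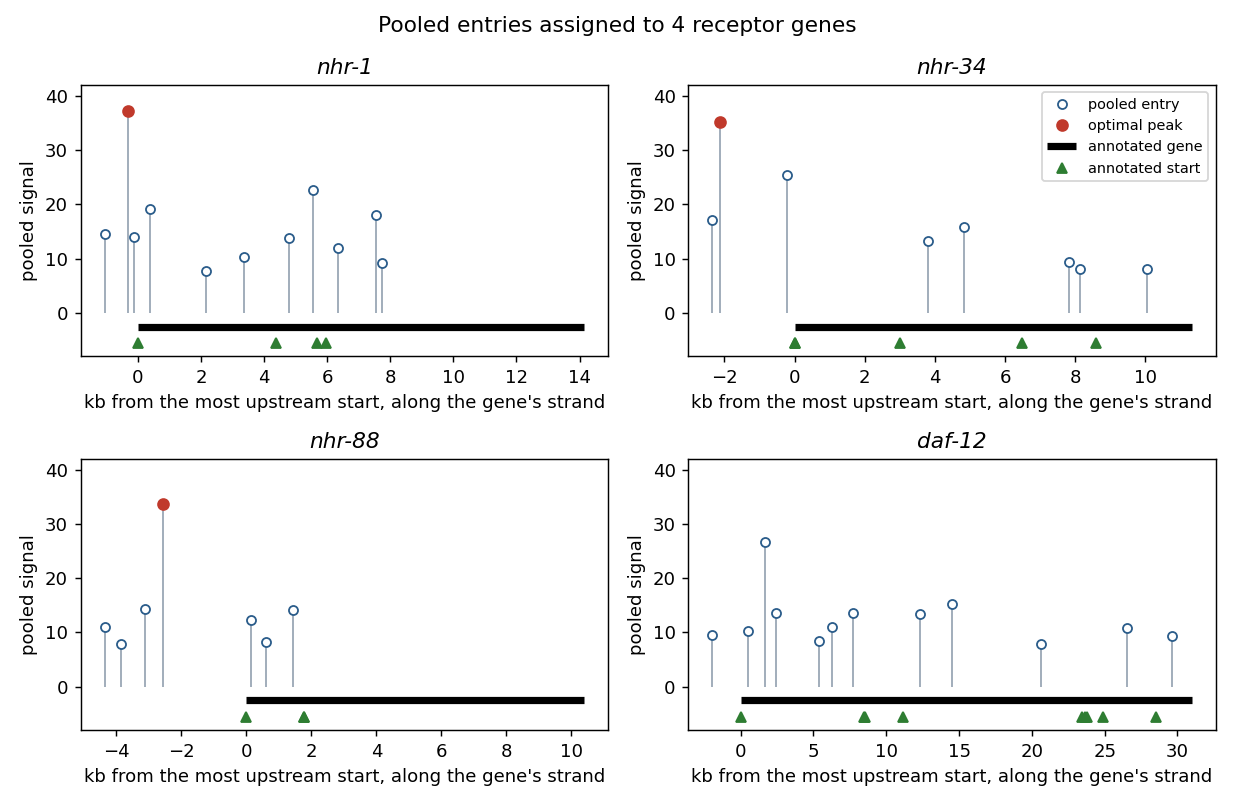
Signal of each pooled entry assigned to nhr-1, nhr-34, nhr-88 and daf-12 (y axis) against the position of its summit in kb from the most upstream start, along the gene's strand (x axis). Black bars are the annotated genes, green triangles annotated starts and red points optimal peaks. The optimal peaks of nhr-34 and nhr-88 lie upstream of the gene, and 11 of the 12 entries of daf-12 lie along its 31.0 kb.

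All 5 genes with an optimal peak had 2 or more annotated starts, from 2 at nhr-19 to 6 at nhr-49. Among receptor genes with 2 or more starts, 79 of 97 (81.4%) had a pooled entry, against 62.7% of the 177 with 1 start. Over all protein-coding genes the share was 63.0%, which was not split by number of starts. The optimal count was 0 of 177 for genes with 1 start, which allows up to 1.69%. Over all protein-coding genes, 3.90% of those with 2 or more starts and 1.56% of those with 1 start were assigned an optimal peak. More starts also mean more sequence that can be assigned to a gene, 5.24 kb against 3.73 kb at the median for receptor genes, and the part of this in the difference was not tested.

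The family is concentrated on chromosome V, which holds 167 of its 274 genes (60.9%), and no receptor gene there was assigned an optimal peak. That count of 0 allows a share of up to 1.80%, and the share of all protein-coding genes on V was 1.10%. A pooled entry was assigned to 107 of the 167 (64.1%, Wilson interval 56.6 to 71.0), against 57.8% of all genes on V. On X the share was 26 of 27 (96.3%, 81.7 to 99.3) against 75.6% of all genes, with nhr-255 as the exception. On IV it was 27 of 33 (81.8%, 65.6 to 91.4) against 63.4%. On II, III and I it was 10 of 15, 6 of 8 and 14 of 24, with intervals that include the share of all genes on the same chromosome. The 10 genes on I without an entry lay from nhr-74 to nhr-169, between positions 11429014 and 12443780, where 5 other receptor genes had 1 entry each (nhr-113, nhr-82, nhr-265, nhr-165 and nhr-174). Receptor genes on X had 3.70 entries each, against 1.955 for all genes on X, and those on V 1.07 against 1.08. The assignable sequence had a median of 7.93 kb for receptor genes on X, against 5.28 kb for all genes there. Per Mb of that sequence there were 428.3 entries at receptor genes on X and 335.3 at all genes on X, and 288.6 and 273.9 on V.

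**Figure D4:**
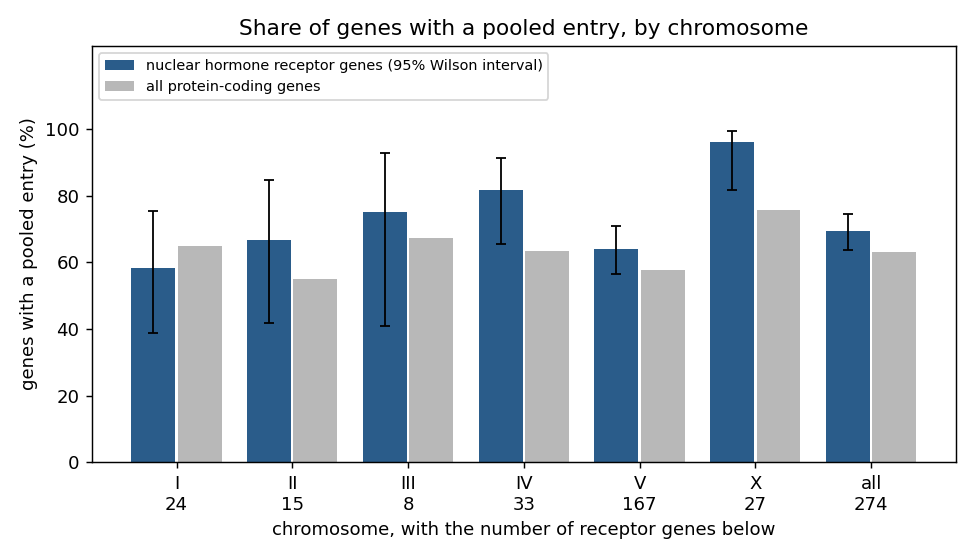
Percentage of genes assigned a pooled entry on each chromosome, for receptor genes (blue, with 95% Wilson intervals) and all protein-coding genes (grey); the number of receptor genes is under each chromosome name. The receptor genes' share was highest on X, at 96.3%, and on V it was 64.1%.

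Many receptor genes lie side by side. Of the 274, 137 genes had another receptor gene as an immediate protein-coding neighbour. Of these 86 (62.8%) had a pooled entry and 0 an optimal peak, which allows up to 2.19%. Of the other 137, 104 (75.9%) had a pooled entry and 5 an optimal peak. Over all protein-coding genes the shares were 63.0% and 2.18%. On V alone the shares with a pooled entry were 63.6% of 107 genes beside another receptor gene and 65.0% of 60 that were not. The optimal count on V was 0 in both sets, against 1.10% of all genes there. The optimal counts of 0 and 5 therefore differ only through genes on other chromosomes. The median assignable sequence was 3.39 kb for genes beside another receptor gene and 5.02 kb for the others, and the part of this in the difference was not tested. The strongest entry at a gene in such a run was that of nhr-154, with a signal of 25.2 at chrV:12102475-12102818, and its neighbour nhr-153 had one of 17.2.

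The 443 pooled entries assigned to receptor genes had a median signal of 10.1 and a median rank of 15206, against 10.2 and 14952 for all 27569 assigned entries. Entries of both replicates overlapped 139 of them (31.4%), against 32.1% of all assigned entries. Neither replicate had an entry at 41 (9.26%), against 9.78%. Among the 43 within the 3000 highest, 36 (83.7%) were overlapped in both replicates, against 82.6% of all assigned entries in those ranks. Across the 139 entries seen in both replicates the signals had a Spearman's rho of 0.181, which is a correlation across regions of the same libraries and is given as a description.

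By location, 112 summits (25.3%, 21.5 to 29.5) lay within 500 bp of a start, against 28.2% of all assigned entries. Introns held 109 (24.6% against 27.5%), intergenic sequence 147 (33.2% against 28.9%) and coding exons 54 (12.2% against 9.32%). On chromosome V the coding exon share was 21.2% (15.9 to 27.8), against 11.7% of all assigned entries there, and on the other chromosomes it was 6.06% (3.76 to 9.62) against 8.73%. The excess over all chromosomes was thus on V alone. Start windows held 35.2% on V (28.6 to 42.4) against 31.8%, and 18.6% elsewhere (14.3 to 23.7) against 27.3%. Intergenic sequence held 20.7% on V against 27.5%, and 41.7% elsewhere (35.9 to 47.7) against 29.2%. Within the 3000 highest entries, 12 of 43 summits at receptor genes lay within 500 bp of a start (27.9%, 16.7 to 42.7), against 42.2% of all assigned entries. With the list of replicate 2 alone it was 37.1% against 39.2%, and with replicate 1 alone 33.3% against 38.1%.

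GAGAGA, the word most frequent at ZAG-1 peaks among those examined, was also common at the stronger receptor gene entries. It lay within 100 bp of the summit, on either strand, at all 5 optimal peaks, with 1 match at nhr-19, 2 at nhr-49, 4 each at nhr-1 and nhr-34 and 6 at nhr-88. It was at 49.4% of all 478 optimal peaks. Within the 3000 highest entries it was at 21 of 43 receptor gene entries (48.8%, 34.6 to 63.2) and at 29.6% of all assigned entries. The mean GC content of these windows was 37.4% and 36.9%. Some of the 43 entries share a gene, so they are not separate observations. With 1 entry per gene the word was at 14 of 33 (42.4%, 27.2 to 59.2). That interval includes the 29.4% found over all genes in the same way. The single replicates gave smaller differences, 34.3% against 27.9% in replicate 2 and 26.2% against 23.5% in replicate 1. Over all pooled ranks the word was at 57 of 443 receptor gene entries (12.9%, 10.1 to 16.3), against 13.1% of all assigned entries. In the list of replicate 1 it was at 16.4% (13.2 to 20.2) against 12.5%, and in that of replicate 2 at 13.6% (10.7 to 17.1) against 12.8%. nhr-40 had it at 4 of 6 entries and nhr-1 at 4 of 11, while daf-12 had it at 0 of 12.

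**Figure D5:**
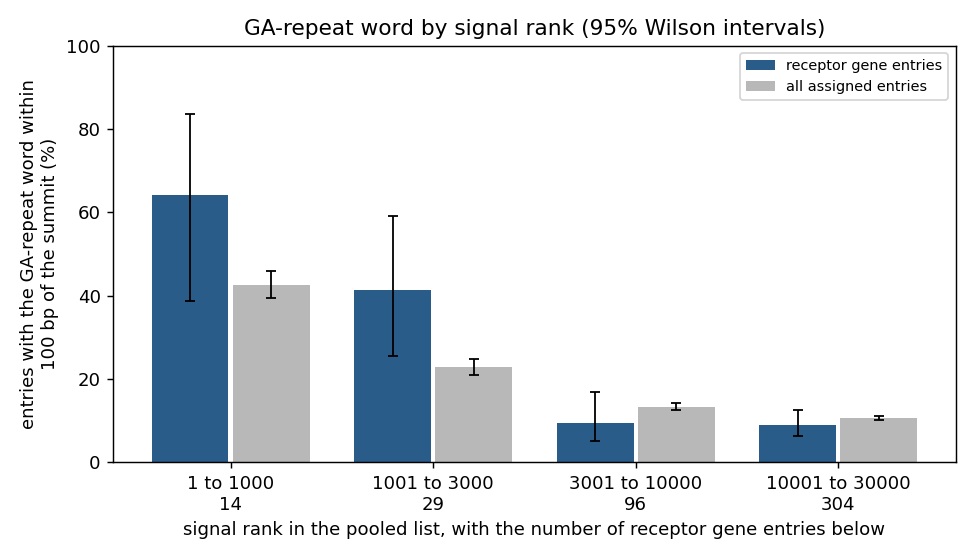
Percentage of entries with the GA-repeat word GAGAGA within 100 bp of the summit, by signal rank in the pooled list, for entries of receptor genes (blue) and all assigned entries (grey), with 95% Wilson intervals. Among ranks 1 to 1000 it was at 64.3% of 14 receptor gene entries and 42.7% of all, and among ranks beyond 10000 at 8.88% and 10.6%.

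GAGACGCA was at 4 of the 43 entries within the 3000 highest (9.30%, against 8.50% of all assigned entries), at nhr-1, daf-12, nhr-17 and nhr-256, and at 11 of all 443 (2.48% against 1.99%). This word was picked after the sequences were seen. The E-box words CAGGTA and CAGGTG were, counted jointly, at 38 receptor gene entries (8.58%, 6.31 to 11.6), against 7.92% of all assigned entries. On chromosome V they were at 12.3% of receptor gene entries (8.26 to 17.9), against 8.88% of all entries there, and on the other chromosomes at 6.06% (3.76 to 9.62) against 7.69%. None of the 5 optimal peaks had either word within 100 bp. A match is a description of the sequence, and the absence of one says only that these letters were not in the window.

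Of the listed genes that work with these receptors, 3 coregulators had the highest signals. The list held 15 genes, of which 14 matched an annotated symbol. A pooled entry was assigned to 11 of the 14 (78.6%, against 63.0% of all genes) and an optimal peak to 2, cbp-1 and din-1 (2.18% of all genes). Their median assignable sequence was 5.67 kb, and its part in these counts was not tested. cbp-1 encodes a CBP/p300 histone acetyltransferase that acts as a coactivator. Its peak had a signal of 56.2 at rank 72, in intergenic sequence 871 bp upstream of the gene, and ranked 46 in replicate 1 and 169 in replicate 2. din-1 encodes a corepressor of DAF-12. Its peak had a signal of 33.4 at rank 358, 664 bp upstream, and overlapped the noncoding RNA gene ZK20.8. It ranked 4879 in replicate 1 and 258 in replicate 2. A second din-1 entry, with a signal of 26.8 at rank 607, ranked 1587 in replicate 1 and 1782 in replicate 2. gei-8, which encodes a relative of the NCoR and SMRT corepressors, had its highest entry just under the optimal list, with a signal of 29.5 at rank 483 and 3356 bp upstream. It ranked 17182 in replicate 1 and 587 in replicate 2. A second gei-8 entry, with a signal of 26.7 at rank 620, ranked 773 in replicate 1 and 1523 in replicate 2. The enzymes of dafachronic acid synthesis and sterol modification daf-9, daf-36, dhs-16, hsd-1 and strm-1 each had a pooled entry, with signals from 8.10 to 11.8. No pooled entry was assigned to the Mediator subunit gene mdt-15, a coactivator of NHR-49, or to the desaturase genes fat-5 and fat-7, which NHR-49 regulates. The listed genes fat-6 and acs-2 did have pooled entries. There was 1 at fat-6, at rank 16751, and 3 at acs-2, the highest at rank 8196 with a signal of 12.3. The 3 coregulators hold more assignable sequence (7.19 to 23.3 kb) than mdt-15 (0.360 kb), fat-7 (2.73 kb) and fat-5 (5.72 kb). The listed genes hsd-1 (8.80 kb) and sbp-1 also hold more than cbp-1 (7.19 kb). Their highest entries ranked 9436 and 10617, against 72 for cbp-1. The part of assignable sequence in the entries and ranks of these genes was not tested.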

How the data were processed

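Peak lists on ce11 were analysed, made from 2 biological replicates that form 1 group. Per the release notes deposited with the labels, entries were called for each replicate and for both pooled, with a further input file that the notes do not describe, and the optimal list was derived from these. The notes name no aligner or caller. Signal per entry and −log10 q are the authors' deposited values, and the formula of the signal is not given. Lists on ce10 were not used here, for want of an annotation of that build. Read depth is unknown, so Wilson intervals and limits for counts of 0 (3 counts) cover counting error only.

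Summits were assigned with Ensembl release 115 gene models of WBcel235, the same build as ce11. 0 entries ran past a chromosome end. Replicates are compared by overlap of 1 bp or more, taking the best ranked entry. Python 3.11.15, pandas 2.3.3, numpy 2.4.6 and scipy 1.17.1 were used, and assignment was tested on simulated data. The design allows no comparison of conditions and no test of the list was made. Genes named are members with an optimal peak, the 20 of highest signal, those with most entries (ties included) and those of the role lists; neighbours and genes named by chromosome (nhr-153, nhr-255 and those on I) were chosen after their values were seen. Alternatives changed the distance, windows, thresholds, overlap rule and replicates used. The members, lists and words were chosen with earlier results of these data known. Of the coregulator list daf-21 matched no annotated symbol.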

Additional observations from a re-analysis of the deposited data

How the results depend on the processing

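The alternatives covered other assignment distances, start windows, motif windows, overlap rules, thresholds and the lists of a single replicate. Those for the 3000 highest entries were chosen after seeing the data. The number of receptor genes with an optimal peak was 5 as reported. It was 2 with assignment within 1000 bp (0.730%, against 1.52% of all genes) and 3 within 2000 bp (1.09% against 1.85%). By gene body or start window it was 3 (1.09% against 1.93%). In the 239 highest optimal peaks it was 1, nhr-19 (0.365% against 1.11%). With as many pooled entries added it was 12 (4.38% against 4.13%). By single replicates it was 6 in each (2.19% against 2.13% of all genes), of which 4 and 3 were among the 5 reported. The number with a pooled entry fell to 123 when only the pooled entries above the median rank were used. There 41.9% of all genes had one. It was 190 to 191 with 1 replicate, where 63.3 to 65.1% of all genes had one. Window sizes moved shares of receptor gene entries and of all assigned entries together. Within 250 bp of a start lay 11.5% (15.6% of all entries) and within 1000 bp 45.8% (47.4%). Windows of 50 and 250 bp gave 7.22% and 28.7% for GAGAGA (7.21% and 26.6% of all), and 4.06% and 21.9% for the CAGGT words (3.95% and 19.7%). Without a replicate the ranges were 24.3 to 28.4% in start windows (27.6 to 28.5% of all), 13.6 to 16.4% for GAGAGA (12.5 to 12.8% of all) and 9.93 to 10.7% for the CAGGT words (8.03 to 8.85% of all). The GAGAGA share was thus above that of all entries in each single replicate and just below it in the pooled list. For the CAGGT words the widest gap was in replicate 2, at 10.7% (8.11 to 13.9) against 8.03%. Within the 3000 highest, GAGAGA was at 25.6% with 50 bp windows (19.3% of all) and at 26.2 to 34.3% without a replicate, and at 42.4% with 1 entry per gene (29.4% of all). Start windows there held 33.3 to 37.1% without a replicate. The median rank was 11389 with 1 entry per gene (10069 for all genes) and 15104 to 15706 without a replicate. Overlap in both replicates fell to 22.1% when 50% of the entry had to overlap and to 14.7% with summits within 100 bp (22.9% and 15.6% of all entries). Gene body, window and overlap settings moved the background too, and the causes were not tested. No paired analysis was possible because there is 1 group. Depth is unknown, and with 5 genes the optimal count has a wide interval.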

Other observations

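Of the 84 receptor genes without a pooled entry, 36 had an entry in the list of replicate 1 and 34 in that of replicate 2, with 15 in both and 29 in neither. The best of these ranked 3644 and 3694. Over the whole family 36 genes had no entry in either replicate.

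A gap between a replicate and the pooled list was seen at nhr-182 on V, where the entry of replicate 1 at chrV:2259521-2259864 ranked 356 (signal 13.3), the pooled entry of the gene ranked 29021 (7.59) and replicate 2 had no entry for the gene. It was chosen after its values were seen.

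Other families of transcription factors had somewhat larger observed shares with an optimal peak, from few genes. The share was 1.82% for receptor genes and 2.18% for all protein-coding genes. Of the 63 genes named ceh- with a number, most of them homeobox genes, 4 had one (6.35%, Wilson interval 2.50 to 15.2). They were ceh-38 (signal 80.3), ceh-5 (53.8), ceh-48 (30.7) and ceh-22 (29.9). The peak assigned to ceh-5 lay inside the genes eat-16 and ocrl-1. Of the 25 genes named hlh- with a number, which encode basic helix-loop-helix factors, 2 had one (8%, 2.22 to 24.97), hlh-11 (59.6) and hlh-30 (34.3). These intervals overlap that of the receptor genes, and the differences were not tested.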
